A study of Arabidopsis thaliana with 8 samples.

Results

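The transcripts described here stood at least 2-fold higher in shoots of the triple mutant lhp1-4 bpc4 bpc6 than in wild type, lhp1-4 and bpc4 bpc6, while lhp1-4 and bpc4 bpc6 stayed close to wild type. Members were chosen by measured values. The mean log2 intensity of the triple mutant had to be at least 1 above each of the other 3 genotype means, and the lhp1-4 and bpc4 bpc6 means had each to lie less than 0.5 from the wild type mean. The rule found 77 of 22716 probe sets, 0.339%. A probe set is the group of array probes that reads 1 transcript or a few related ones. It can stand for a transcript only as far as its probes match it, and the sources used here do not pair probe sets with genes. Probe sets are therefore described by their levels, only those with the 2 largest differences are given by identifier, and no gene function is assigned to any of them.

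LHP1 (LIKE HETEROCHROMATIN PROTEIN 1) carries a chromodomain that binds histone H3 methylated at lysine 27, the mark set by Polycomb repressive complex 2, and it takes part in keeping marked genes silent. BPC4 and BPC6 are BASIC PENTACYSTEINE proteins, plant factors that bind GA-rich (GAGA) motifs in DNA. The series title places LHP1 at GAGA motifs through BPC6. A transcript raised when all 3 genes are mutated but not when LHP1 alone, or BPC4 and BPC6 together, are mutated is the pattern collected here.

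Shoots of untreated Arabidopsis thaliana, accession Columbia (Col-0), were taken at 18 days of age from greenhouse plants, and each replicate pooled 6 plants. There were 4 genotypes with 2 biological replicates each: wild type, the lhp1-4 mutant, the bpc4 bpc6 double mutant and the lhp1-4 bpc4 bpc6 triple mutant, which carries all 3 lesions. Each array held the RNA of 1 pool in 1 colour. The labels do not say how many lines stand behind a genotype, and without gene names neither the mutated genes nor shoot marker genes were analysed here. In whole shoots, more cells of a type and more transcript per cell cannot be told apart. Array medians over all probe sets ran from 54.7 to 58.3, and log2 intensities of replicates correlated at 0.993 to 0.997.

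At the median the members were low in 3 genotypes and raised in the fourth, on both arrays. The median member intensity was 25.4 and 21.5 on the wild type arrays, 27.6 and 26.9 on the lhp1-4 arrays and 26.1 and 20.2 on the bpc4 bpc6 arrays. On the triple mutant arrays it was 85.8 and 78.6. All 6 arrays outside the triple mutant thus had similar member medians, below the array median over all probe sets, and both triple mutant arrays lay above that median. That array median counts 5007 probe sets with all values between 3 and 10, whose level is not known. Among the 17709 probe sets of known level the median triple mutant mean was 108.5, above the 75.2 among members. These values describe what the rule selected and test nothing. In 76 of the 77 members both triple mutant arrays lay above all 6 other arrays, a separation that 12.2% of all probe sets showed and that the rule favours.

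**Figure D1:**
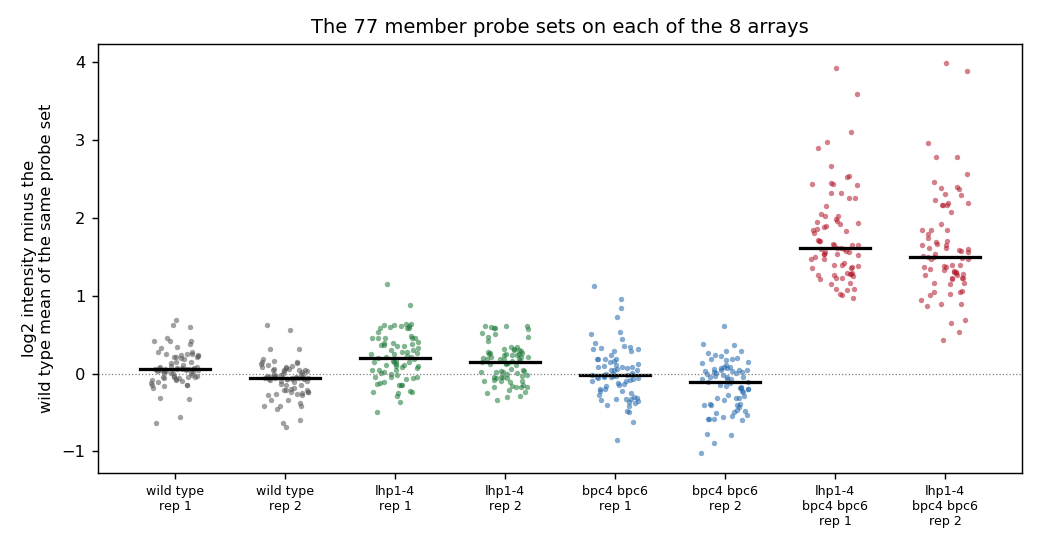
Log2 intensity of each of the 77 members (points) minus the wild type mean of the same probe set, for each of the 8 arrays, with the median of the members as a black bar. The 6 arrays of wild type, lhp1-4 and bpc4 bpc6 scatter around 0 and both triple mutant arrays lie above them, which is the pattern the rule selects.

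The excess of a member is its triple mutant mean minus the highest of the other 3 genotype means on the log2 scale. Its median over the members was 1.26, or 2.39-fold, with quartiles of 1.09 and 1.68. The highest excess was 3.84, or 14.3-fold. Most members were raised moderately: 48 had an excess under 1.5, 29 had 1.5 or more, and 10 had 2 or more. Over all 22716 probe sets the median excess was -0.16.

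Probe set 262373_AT had the largest excess. Its intensities were 14.3 and 10.6 on the wild type arrays, 13.2 and 13.5 on those of lhp1-4, 12.01 and 13.87 on those of bpc4 bpc6, and 188 and 195 on those of the triple mutant. All 6 arrays outside the triple mutant fell within a narrow low range, and none came near the triple mutant arrays. The triple mutant exceeded lhp1-4, the highest of the others, by 3.84 ± 0.15 on the log2 scale (moderated SE, n = 2 arrays per genotype). Against wild type the lhp1-4 mean differed by 0.12 and the bpc4 bpc6 mean by 0.07, both under that error.

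Probe set 251635_AT came second. It read 305 and 374 in the triple mutant, against 29.3 and 21.7 in wild type, 24.6 and 38.4 in lhp1-4 and 20.4 and 17.5 in bpc4 bpc6. Both triple mutant arrays again stood far above the other 6, but the lhp1-4 arrays differed from each other more than those of the other genotypes. The log2 difference was 3.46 ± 0.24 over lhp1-4 and 4.16 ± 0.24 over bpc4 bpc6 (moderated SE, n = 2 arrays per genotype). The bpc4 bpc6 mean lay 0.42 below wild type on the log2 scale, near the limit of the rule.

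The third member in this order read 32.7 and 30.8 on the wild type arrays, 36.4 and 38.7 on those of lhp1-4, 30.5 and 29.6 on those of bpc4 bpc6, and 237 and 248 on those of the triple mutant. Its excess was 2.69 ± 0.09 on the log2 scale (moderated SE, n = 2 arrays per genotype), 6.47-fold. Its moderated SE was smaller than those of both probe sets above it, and no other member reached an excess of 2.5.

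Members were mostly probe sets of low signal. Signal depends on how well the probes bind as well as on the transcript, so levels of different probe sets do not rank transcripts. The median of the means over wild type, lhp1-4 and bpc4 bpc6 was an intensity of 24.4 among members and 106 among the 17709 probe sets whose level is known. Of the 77 members 30, or 39.0%, lay under 16 in these 3 genotypes, against 15.4% of the 17709. A further 26 lay between 16 and 64, 13 between 64 and 256, and 6 between 256 and 1024. Only 2 members lay above 1024, 2.60% of members, against 7.17% of the 17709. The median excess fell with the level, from 1.48 under 16 to 1.22, 1.11 and 1.10 in the next 3 classes and 1.06 in the 2 brightest. These medians come from the same arrays that chose the members. Background signal takes up part of a dim intensity, so a log2 difference of a dim probe set can understate the change in transcript.

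The 2 brightest members lay close to the threshold of 1. The brightest read 5320 and 5777 in the triple mutant, against 2163 and 2267 in wild type, 2454 and 2754 in lhp1-4 and 2280 and 1747 in bpc4 bpc6. Its excess was 1.09 ± 0.14 on the log2 scale (moderated SE, n = 2 arrays per genotype), and its lhp1-4 arrays were the highest of the other 6 without reaching the triple mutant. The other member above 1024 read 1839 and 2003 on the wild type arrays, 1741 and 1659 on those of lhp1-4, 1731 and 1767 on those of bpc4 bpc6, and 3894 and 3890 on those of the triple mutant. Both single values of the triple mutant were nearly the same, and the excess was 1.02 ± 0.09 (moderated SE, n = 2 arrays per genotype).

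Among the 8 members above 256 the largest excess was 1.66 ± 0.12 on the log2 scale (moderated SE, n = 2 arrays per genotype). That member read 1803 and 2081 in the triple mutant, against 425 and 460 in wild type, 569 and 663 in lhp1-4 and 505 and 522 in bpc4 bpc6. Its lhp1-4 arrays were the highest of the other 6, and lhp1-4 stood 0.47 above wild type, close to the limit of 0.5.

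The widest distances between triple mutant replicates lay in dim members. In 1 of them the triple mutant arrays read 38.0 and 9.48, a distance of 2.00 on the log2 scale and the widest among members, while the other 6 arrays ran from 4.88 to 7.43. Its excess of 1.37 carried a moderated SE of 0.56 (n = 2 arrays per genotype). The dimmest member read 4.05 and 3.98 on the wild type arrays, 5.29 and 3.90 on those of lhp1-4, 3.93 and 3.96 on those of bpc4 bpc6, and 21.7 and 5.44 on those of the triple mutant, so that nearly all of its rise lay on 1 array. In the 1 member whose groups overlapped, a bpc4 bpc6 array at 20.2 lay above a triple mutant array at 16.3, and the other triple mutant array read 52.0.

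**Figure D2:**
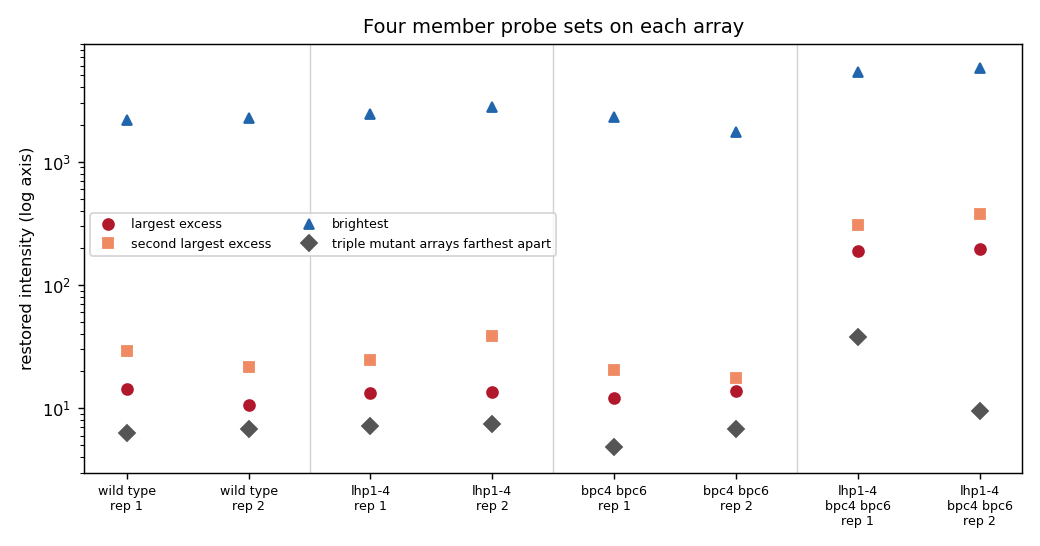
Restored intensity on a log axis of 4 members on each of the 8 arrays: those with the largest and second largest excess, the brightest member, and the member whose triple mutant arrays lay farthest apart. The triple mutant arrays read 188 and 195, 305 and 374, and 5320 and 5777 in the first 3, and 38.0 and 9.48 in the last.

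Differences between replicates do not enter the rule, which uses means only, so they show how firmly the members were measured. The triple mutant arrays differed at the median by 0.26 among members and 0.14 (log2) among all probe sets. They differed by over 1 in 7 of 77 members, 9.09%, against 0.889% of all probe sets. Of these 7, 6 were among the 30 members under 16, and 1 among the 47 brighter ones. For wild type, lhp1-4 and bpc4 bpc6 the medians were 0.19, 0.23 and 0.18 among members, and 0.15, 0.10 and 0.11 over all probe sets. Among probe sets of known level they were 0.17, 0.11 and 0.14, and 0.17 for the triple mutant. Members thus scattered more between replicates than the array as a whole in all 4 genotypes. Replicate 1 was the higher of both triple mutant arrays in 44 of the 77 members. It was the higher in 53 members for wild type, 45 for lhp1-4 and 41 for bpc4 bpc6.

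Whether the pattern recurs on arrays that did not choose it was read by applying the rule to 1 array per genotype and looking at the remaining 4. The arrays with replicate number 1 alone gave 76 probe sets, with a median excess of 1.199 on those arrays. On the arrays with number 2, which took no part in that choice, their median excess was 1.02, and 39 of 76, 51.3%, again had the triple mutant at least 1 above each other genotype. Over all probe sets that share was 1.47%. The triple mutant was the highest of the 4 genotypes in 73 of the 76, against 26.1% of all probe sets.

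Chosen on the number 2 arrays, 86 probe sets had a median excess of 1.29 there and 0.87 on the number 1 arrays. Of these 31, or 36.0%, were again at least 1 above each other genotype, against 1.22% of all probe sets, and in 78 the triple mutant was the highest genotype, against 22.8%. In both directions the excess was smaller on the arrays that had not chosen it. Its extremes there ran from -0.32 to 3.81 and from -1.14 to 3.71. The whole rule, with its limits on lhp1-4 and bpc4 bpc6, was met by both numbers in 19 probe sets, 25% of the 76 and 22.1% of the 86. All arrays were normalised together by the authors, so arrays of different numbers are not fully independent, and with 1 array per genotype no test was possible.

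A split by level was added after these values had been seen. Of the probe sets chosen on the number 1 arrays, 14 of 26 under an intensity of 16 and 25 of 50 at 16 or more were at least 1 above each other genotype on the number 2 arrays. All probe sets read at those levels did so in 1.14% and 1.64%. In the reverse choice the counts were 19 of 49 and 12 of 37, beside 0.925% and 1.37%. The 1.14% and 0.925% under 16 count the 5007 probe sets of unknown level as dim, so they are not shares of probe sets known to be dim. Among the chosen probe sets the shares for dim and brighter ones lay close together, and their difference was not tested. On the number 2 arrays the median excess was 1.06 for the dim and 1.01 for the brighter ones chosen on number 1. In the reverse choice it was 0.74 and 0.91 on the number 1 arrays. The larger excess of dim probe sets on the choosing arrays thus did not recur in both directions.

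**Figure D3:**
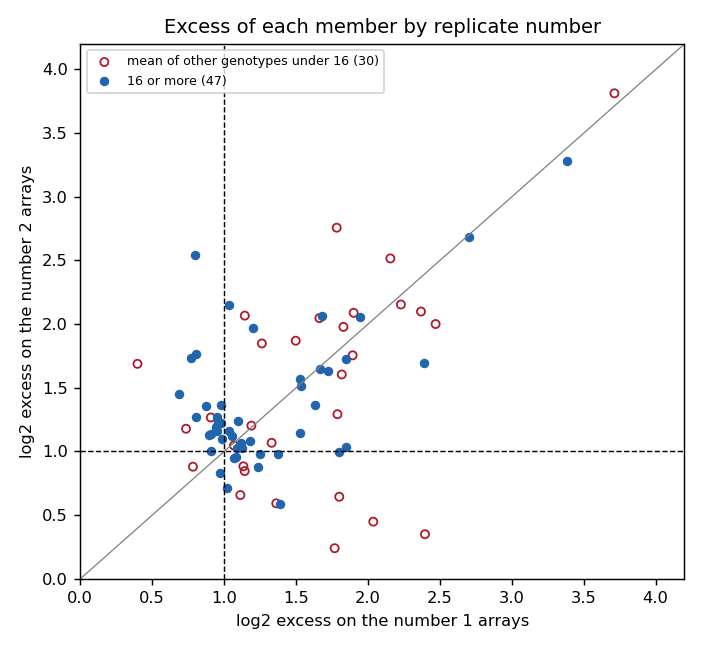
Excess of each of the 77 members on the arrays with replicate number 1 (x axis) and number 2 (y axis), in log2 units, with open circles for the 30 members under an intensity of 16 in the other genotypes and filled circles for the 47 at 16 or more. All 77 lie above 0 on both axes, and 40 lie at 1 or more on both (dashed lines), while the members far from the diagonal differ between the numbers. The arrays of both axes together chose the members, so the rule favours high values on both.

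Within the limits of the rule the lhp1-4 arrays leaned toward the triple mutant. The lhp1-4 mean exceeded wild type in 60 of 77 members, 77.9%, with a median log2 difference of 0.17 and a range of -0.37 to 0.49. Among the 19115 probe sets within the same limits, 35.4% had lhp1-4 above wild type and the median was -0.07. The bpc4 bpc6 mean exceeded wild type in 30 of 77 members, 39.0%, with a median of -0.04 and a range of -0.47 to 0.45, beside 39.6% and -0.04 among the 19115. The lhp1-4 mean was the highest of the 3 lower genotypes in 53 members, 68.8%, against 24.5% of the 19115. The rule bounds these differences, so they are a description. With each array centred on its median, lhp1-4 exceeded wild type in 52 members with a median of 0.09, and after quantile normalization in 66 with a median of 0.18.

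**Figure D4:**
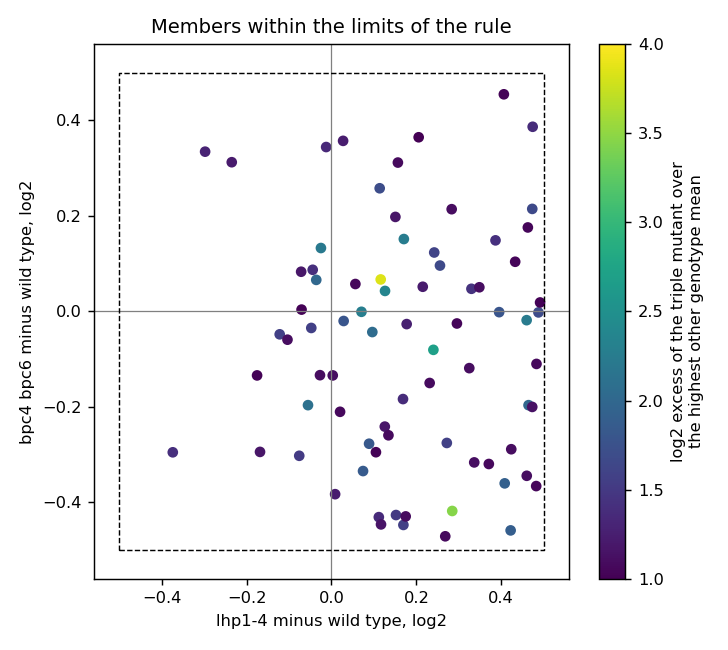
Log2 difference of lhp1-4 (x axis) and bpc4 bpc6 (y axis) from wild type for the 77 members, coloured by the excess of the triple mutant, with the limits of the rule dashed. Of the points 60 lie to the right of 0 on the x axis and 30 lie above 0 on the y axis.

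The limma fit over all probe sets gives the error behind these means, and its calls among members are counted here as a description, because the rule used the same contrasts. A call is a Benjamini-Hochberg adjusted p under 0.05. The triple mutant was called higher than lhp1-4 in 56 of 77 members, beside 2.18% of all probe sets. It was called higher than bpc4 bpc6 in 68 members, beside 10.5%, and higher than wild type in 69, beside 11.5%. All 3 calls were made in 56 members, 2 in 11, 1 in 3 and none in 7. The 21 members without a call over lhp1-4 met the rule by their means alone.

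Calls over lhp1-4 fell among members and over the whole array alike when an lhp1-4 or triple mutant array was left out. Among members they numbered 9 without lhp1-4 replicate 2, 19 without lhp1-4 replicate 1, 32 without triple mutant replicate 1 and 37 without triple mutant replicate 2. Over all probe sets they numbered 28, 82, 143 and 164 in the same order, against 496 with all arrays. Without either wild type array members called numbered 59, and without either bpc4 bpc6 array 53. Leaving out an array also lowers the degrees of freedom.

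The interaction is the triple mutant plus the wild type mean minus the lhp1-4 and the bpc4 bpc6 means on the log2 scale. It was called positive in 40 of 77 members, beside 1.54% of all probe sets, which means a triple mutant level above the sum of the separate changes. The rule itself forces this value up. The count was 7 without lhp1-4 replicate 2, 14 without lhp1-4 replicate 1, 17 without wild type replicate 1 or bpc4 bpc6 replicate 2, and 22 without triple mutant replicate 1. Over all probe sets it fell from 349 to 14, 80, 110, 98 and 96 in these 5 settings.

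The limits on lhp1-4 and bpc4 bpc6 kept out nearly all called changes of those genotypes. In 1 member lhp1-4 was called different from wild type, beside 6.01% of all probe sets. That member, outside the naming rule and picked for this call, read 409 and 402 in the triple mutant, against 144 and 134 in wild type, 192 and 197 in lhp1-4 and 122 and 136 in bpc4 bpc6. Both lhp1-4 arrays lay above both wild type arrays, so for this probe set "raised only in the triple mutant" holds by the limit of 0.5 and not by the test. In bpc4 bpc6 limma called 0 members, beside 1.8% of all probe sets, with 10 members at an unadjusted p under 0.05, beside 16.4% of all probe sets. In lhp1-4 the unadjusted count was 8, beside 22%.

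The set is part of a larger group of probe sets highest in the triple mutant. In all, 284 probe sets had a triple mutant mean at least 1 above each other genotype, and the members were 27.1% of them. In 115 of the 284 the lhp1-4 mean alone was outside its limit, in 31 the bpc4 bpc6 mean alone, and in 61 both. In 174 lhp1-4 stood at least 0.5 above wild type. Among the 19115 probe sets with both means within the limits, the members were 0.403%.

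The same rule was turned to the other mutants and to lower values for comparison, with no test. A mean at least 1 below each other genotype, with the same limits, was found for the triple mutant in 11 probe sets. For bpc4 bpc6 25 probe sets were raised only there and 4 lowered, and for lhp1-4 3 were raised and 5 lowered. Raised probe sets thus outnumbered lowered ones in the triple mutant and in bpc4 bpc6. They also did so with each array centred on its median, at 79 and 11 and at 23 and 3, and after quantile normalization, at 74 and 10 and at 26 and 4. A probe set near the lowest signal has less room to fall than to rise, so raised and lowered counts are not on equal terms. Of the members 30 lay under 16 in the other genotypes and 47 at 16 or more. How far this bears on the counts was not tested.

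The threshold ran through a dense part of the distribution. The 3 members just inside had excesses of 1.01, 1.01 and 1.02. The nearest of these had a wild type mean of 47.3, an lhp1-4 mean of 54.6, a bpc4 bpc6 mean of 61.0 and a triple mutant mean of 122. The 3 probe sets just outside that met the other limits had 0.9936, 0.9985 and 0.9998, the last with intensities of 417, 431, 328 and 862 in that order. Of the members 21 had an excess under 1.1, and 24 probe sets within the limits lay between 0.9 and 1. The limits on lhp1-4 and bpc4 bpc6 were also close for many, with 23 members more than 0.4 from wild type in at least 1 of them.

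Leaving out 1 array moved the set in both size and content. The rule then gave 61 to 102 probe sets, of which 50 to 68 were among the 77. Fewest members were retained without wild type replicate 1, at 50, and most without triple mutant replicate 2, at 68. Without lhp1-4 replicate 1 the rule took in the most other probe sets, 36 of 102. Under all 8 of these omissions 15 members met the rule each time.

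**Figure D5:**
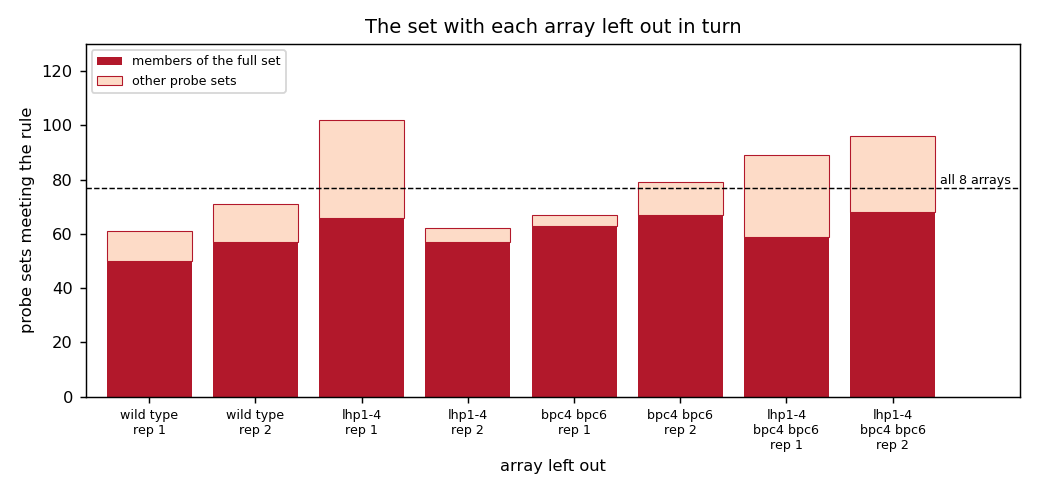
Number of probe sets that meet the rule with each of the 8 arrays left out, split into members of the full set (dark) and other probe sets (light), with the 77 of all 8 arrays as a dashed line. Retained members range from 50 to 68 and additional probe sets from 4 to 36.

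The way intensities were stored bears on at least 30 of the 77 members. Values of 1000 or more appear to have been deposited divided by 1000, and they were scaled back. This concerned 5 members: the 2 brightest, with all 8 values scaled, and 3 in which the triple mutant values alone were scaled, so that their rise rests on that reading. In 27 members a value of 3 to 10, which could be dim or a divided bright one, or a value of 10 to 100, was read by its closeness to other values of the same probe set, against 10.7% of all probe sets. These 27, which include the 2 brightest, and the 3 with only triple mutant values scaled make up the 30. Values of 10 to 100 that were kept as stored by default are not counted in the 30. The 3 members with the largest excess hold such values on all arrays outside the triple mutant, so their low levels rest on that default. On the values as deposited the rule found 150 probe sets, 74 of them members. No member was among the 5007 probe sets with all values between 3 and 10, whose level is not known.

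The reading rule leaves out strong rises from a very dim level. It dropped 30 probe sets as unsettled, and in 3 of these the 6 other arrays lay between 3 and 10 and both triple mutant arrays at 10 or more. Taken as deposited, these 3 met the membership rule with excesses from 3.10 to 3.53 on the log2 scale. Only the 2 leading members had an excess that large, so the upper end of the set may be incomplete by these 3.

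Probe set names carry a suffix for probe design. Of the members 76 had the suffix _AT, which covers 95.3% of all probe sets, 1 had _S_AT, given to probes shared by related transcripts, beside 4.11%, and none had _X_AT, given to probes that can cross-hybridise, beside 0.555%.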

How the data were processed

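The authors deposited 1 linear intensity per probe set and array, made with RMA (background correction, quantile normalization and probe summary) per the submitters' processing notes; its version is not given in the sources used here. Deposited values ran from 1 to 999.7. From the values it was inferred, without scanner files, that any intensity from 1000 upward had been divided by 1000 in the file. Values under 3, and values of 10 to 100 with 3 decimals, were multiplied by 1000; other values of 10 to 100, and values of 3 to 10, were read within 5-fold of settled values of the same probe set, for 3 to 10 also at least 20-fold off under the other reading. This left out 30 probe sets and 1 control. Log2 values were fitted with limma 3.58.1 in R 4.3.3 as 4 group means (4 residual and 2.85 prior degrees of freedom), with Benjamini-Hochberg adjustment over all 22716 probe sets of a contrast. Errors are moderated standard errors. The number of arrays limits the precision.

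Means, counts and figures used Python 3.11.15. The fits and the membership rule were tested on simulated data. Noise in the simulation of the rule was far smaller than the differences between replicates of the members. That simulation checks the coding of the rule and cannot show how many members noise makes or loses. The scale rule was tested on its own restored values, divided again, without probe sets of unknown level. That test cannot show a value misread the first time. Members and lists were chosen with earlier results of these data known. The naming rule was the 25 members with the largest excess; since no table pairs probe sets with genes, 2 are given by identifier and others by rank or level, some picked after their values were seen. Planned gene lists, marker lists and promoter motifs could not be used for that reason. Replicates are separate plant pools.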

Additional observations from a re-analysis of the deposited data

Results flagged for a closer look

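The effect of losing BPC4 and BPC6 differed between plants with and without LHP1 in 40 of the 77 members by limma's interaction test at adjusted p under 0.05, beside 1.54% of all probe sets. The members were chosen for a pattern that raises this value, so the count is a description.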

How the results depend on the processing

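The set of 77 numbered 61 to 102 when 1 array was left out. It numbered 150 on the values as deposited (74 of them members), 39 without probe sets that were dim, with a mean under 32, or of unknown level, 163 and 29 with a threshold of 0.75 and 1.5 in place of 1, and 28 and 124 with a limit of 0.25 and 0.75 in place of 0.5. Without dim probe sets 39 members were left to test, and calls numbered 37 over lhp1-4 and 39 over both bpc4 bpc6 and wild type. With 1 array left out, calls ranged from 9 to 59 over lhp1-4, 60 to 69 over bpc4 bpc6, 63 to 70 over wild type and 7 to 32 in the interaction. Other settings kept these counts within 1.5 times. The excess of 262373_AT ranged from 3.74 to 3.87 and that of 251635_AT from 3.14 to 3.74. Causes were not tested. Same-numbered replicates are not stated to be paired, and the correlation of their deviations ran from -0.18 to 0.23 over 6 pairs of genotypes; with the replicate number as a block, calls numbered 58, 71, 72 and 44 over lhp1-4, bpc4 bpc6, wild type and in the interaction. Signal near the background limits the dim members.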
